A study of Homo sapiens with 1 sample.

Results

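The peaks described here are those of a mutant Zbtb21 protein that lay in DNA between genes. A peak was included when its summit, the base of highest signal, fell outside every annotated gene of any kind and more than 5 kb from both ends of each gene. Of 913 deposited peaks, 308 met this rule, which is 33.7% with an exact 95% binomial interval of 30.7% to 36.9%. Of the others, 528 had their summit inside a gene and 77 lay outside genes within 5 kb of a gene end. No limit on score, fold enrichment, p-value or q-value was applied.

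The study measured DNA binding by ChIP-seq, in which protein and DNA are crosslinked, the chromatin is cut into fragments, here with an enzyme, and the fragments held by the protein are sequenced. HEK293T, a human embryonic kidney cell line, carried a plasmid for the zebrafish Zbtb21K419/845R double mutant, in which both lysines that accept the small protein SUMO are replaced by arginine. It was 1 library with no replicate, so the peaks share 1 source and none of the differences among them has a replicate check. The protein is from fish, it was expressed from a plasmid in human cells that keep their own ZBTB21, and a wild type profile was not analysed here. A peak list holds no measure of the mutant protein itself, so the label could not be checked against its own target.

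Zbtb21 belongs to the ZBTB transcription factors, which pair through a BTB domain, bind DNA through zinc fingers and in most described cases repress their targets. DNA between genes is mixed. It holds enhancers that can act on distant genes, long gene deserts that often flank developmental regulators, and the repeated satellite DNA beside centromeres, where reads from many near-identical copies can pile up on the copies present in the assembly.

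Intergenic sequence held peaks at a density close to that of the remaining genome. The stretches that satisfy the same distance rule made up 36.6% of the 3031 Mb of the 23 chromosomes with peaks, against 33.7% of the peaks. The density was 0.278 peaks per Mb in intergenic sequence (exact 95% Poisson interval 0.248 to 0.311) and 0.315 per Mb (0.290 to 0.341) in genes and the 5 kb around them. Both intervals overlapped. With the pericentromeric blocks set apart, the densities were 0.307 per Mb (0.272 to 0.345, 285 peaks) and 0.321 per Mb (0.295 to 0.347, 602 peaks). These intervals cover counting error only, and unsequenced bases of the assembly are part of the lengths.

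Most intergenic peaks lay under 50 kb from a gene. The median distance from summit to the nearest gene end was 22.9 kb (95% interval of the median 19.7 to 28.4 kb), the middle 50% of the peaks lay between 11.97 and 60.9 kb, and the range was 5.103 to 3612 kb. By class, 57 peaks (18.5%) lay 5 to 10 kb away, 165 (53.6%) lay 10 to 50 kb away, 43 (14.0%) lay 50 to 100 kb away, 40 (13.0%) lay 100 to 500 kb away and 3 (0.974%) lay farther than 500 kb. The corresponding shares of intergenic sequence were 14.6%, 44.3%, 15.5%, 12.4% and 13.3%. The interval of the 10 to 50 kb class (47.8% to 59.2%) lay above its share of sequence and that of the most distant class (0.201% to 2.82%) lay below. The intervals of the other classes included their shares. Of the 3 peaks farther than 500 kb, 2 were in the pericentromeric blocks described further on. Unsequenced bases count in these shares of sequence and can hold no peak. The short arms of chromosomes 13, 14 and 15, for example, had 0 peaks in 16.3, 15.8 and 15.8 Mb of intergenic sequence. The part of such bases in the 2 differences was not tested.

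**Figure D1:**
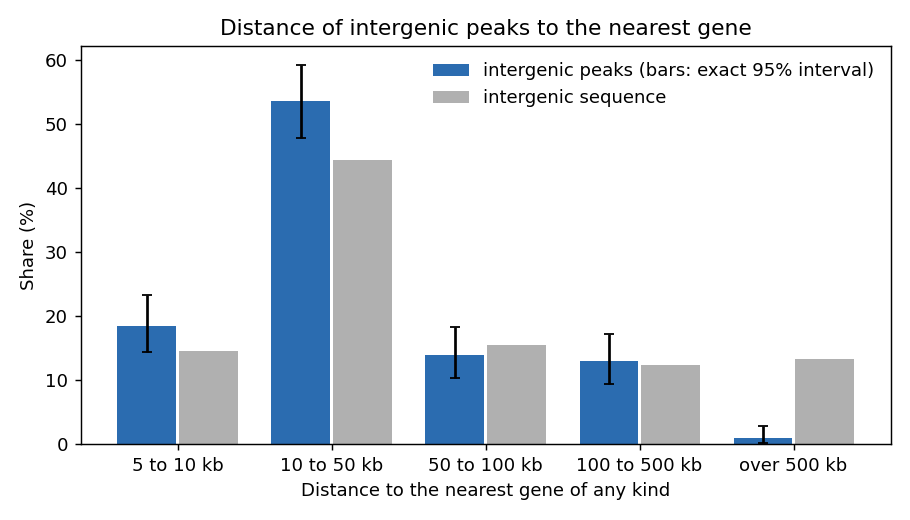
Share of the 308 intergenic peaks (dark bars, with exact 95% binomial intervals) and of intergenic sequence (light bars) in each class of distance to the nearest gene of any kind. The 10 to 50 kb class held 53.6% of the peaks and 44.3% of the sequence, and the class over 500 kb held 0.974% and 13.3%. The shares of sequence include unsequenced bases, which can hold no peak.

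The distance rule is a cut through a continuous range. Just inside it, between 5 and 5.5 kb, were 7 peaks with fold enrichments of 2.90 to 4.24. The nearest genes were GSTA7P (5.103 kb), C16orf54 (5.13 kb), IL4 (5.15 kb), LOC105370264 (5.17 kb), ABCG1 (5.34 kb), LOC105375924 (5.41 kb) and LOC105372017 (5.47 kb). IL4 encodes interleukin 4 and ABCG1 a cholesterol exporter. Just outside it, between 4.5 and 5 kb, were 5 peaks with folds of 2.80 to 4.35, next to SPOP, C11orf98P2, KDM3AP1, CPXCR1 and LOC105370685. The values on either side overlapped.

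The median distance to the nearest protein-coding gene was 89.9 kb, and 44 peaks (14.3%) lay farther than 500 kb from one. The nearest gene of any kind encoded a long non-coding RNA for 125 peaks (40.6%), was a pseudogene for 88 (28.6%) and encoded a protein for 78 (25.3%). Among all 59675 annotated genes placed, these kinds made up 30.7%, 26.1% and 33.6%. The share of intergenic sequence nearest to each kind was not computed, so these differences are not a property of the peaks. Of the rest, 6 peaks were nearest to a transcribed pseudogene, 5 to a small nucleolar RNA gene, 4 to a microRNA gene and 2 to a small nuclear RNA gene. The 308 peaks had 293 distinct nearest genes, so few shared a neighbour.

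Neighbouring genes were grouped by lists of symbols, which do not hold every gene of a class. Genes on the cell adhesion list (cadherin, protocadherin, contactin, LRRTM, NCAM, NEGR1 and similar symbols) were the nearest protein-coding neighbour of 12 intergenic peaks (3.90%), against 2.41% of all peaks. They were 8 genes, namely CNTNAP2, LRRTM4, NCAM2, NEGR1, PCDH9, PCDH18, PCDH19 and PCDH20, the last 4 of which are protocadherins. The distances ran from 179 kb for CNTNAP2 to 1278 kb for PCDH18, and the folds ran from 2.54 for PCDH9 to 3.96 for PCDH18. PCDH19 alone accounted for 4 of the 12 peaks. CHL1, an adhesion gene not on the list, was noticed after the values were seen and lay 17.8 kb from a peak near the end of 3p. A neighbour at this distance is a position and not a target.

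Genes on the list of developmental transcription factors (HOX, IRX, SOX, FOX, PAX, TBX, GATA and similar symbols) were the nearest protein-coding neighbour of 8 intergenic peaks (2.60%), against 1.75% of all peaks. The neighbours included GATA6, a regulator of endoderm and heart, at 7.90 kb, TBXT (brachyury, which acts in mesoderm) at 9.84 kb, and TBX21 (T-bet, of T helper cells) at 13.1 kb. FOXI1 lay 17.0 kb away, FOXP2 43.3 kb, PAX3 of the neural crest 76.1 kb and the Iroquois homeobox gene IRX6 117.5 kb. Their peaks differed in strength. The peak beside TBXT, chr6:166147736-166147932, had a fold of 5.1 from 13 reads and a q-value of 0.00778. The peak beside TBX21, chr17:47759102-47759612, had a fold of 4.62 from 15 reads and a q-value of 0.0120. The folds beside the other 5 genes named were 2.78 to 3.78, and their q-values ran from 0.550 to 0.987. EMX2 (11.96 kb) and ISL1 (46.5 kb), homeobox genes not on the list, were noticed after the values were seen. The peaks near GATA6 and ISL1 were in pericentromeric blocks. Genes with ZNF, ZBTB and similar zinc finger symbols were the nearest protein-coding neighbour of 10 peaks (3.25%, against 2.41% of all peaks), among them ZBTB7A, a repressor of the same family as Zbtb21, 10.2 kb from chr19:4076996-4077218 (fold 4.72, 13 reads, q-value 0.0258). By the same measure, olfactory receptors and genes for glutamate, GABA and potassium channels each neighboured 2 peaks (0.649%, against 0.438% and 0.876% of all peaks). When the nearest gene of any kind was taken instead, the zinc finger and cell adhesion lists turned the other way, each with 1 intergenic peak (0.325%) against 0.986% and 0.657% of all peaks. The developmental list then had 4 (1.30%, against 1.10%). Genes of the LINC series of long non-coding RNAs were the nearest gene of 23 peaks (7.47%, against 4.71%).

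Gene deserts held a smaller share of the peaks than of the sequence with unsequenced bases counted, and the gap was narrower away from centromeres. A desert was a gene-free stretch of at least 500 kb. There were 121, of which 23 held an intergenic peak, and together they held 34 peaks (11.0%, interval 7.77% to 15.1%) in 21.1% of the intergenic sequence. Of the 34 peaks, 12 were in pericentromeric blocks. Outside these blocks 22 of 285 peaks (7.72%) lay in deserts, at 0.254 per Mb (0.159 to 0.384), and 263 lay elsewhere at 0.312 per Mb (0.276 to 0.353). These intervals overlapped, so no difference was detectable with this number of peaks. Unsequenced bases count in the lengths of the deserts and can hold no peak. Their part in the lower desert values was not tested, so the direction is not a measure of binding. When only protein-coding genes were counted as genes, 148 peaks (48.1%) lay in a stretch of at least 500 kb without one.

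The desert peaks outside the blocks had a median fold of 3.58 and a mean of 3.74 ± 0.635 (SD, n = 22 peaks), against 3.43 and 3.46 ± 0.488 (n = 263) for those elsewhere. The 95% intervals of the medians were 3.27 to 4.05 and 3.32 to 3.56. A fold of at least 4 was held by 6 of the 22 (27.3%) and 25 of the 263 (9.51%), against 12.4% of all peaks, and a q-value no higher than 0.05 by 3 (13.6%, interval 2.91% to 34.9%) and 6 (2.28%, 0.842% to 4.90%), against 2.96% of all peaks. The intervals overlapped for both the medians and the q-value shares. The most isolated was chr4:179384339-179384603 in band 4q34.3, 567 kb from any gene and 1942 kb from AGA, its nearest protein-coding gene. It had 7 reads and a fold of 3.17. The next 3 lay on the long arm of chromosome X, 332 to 374 kb from LINC03077, with folds of 2.89 to 3.60. The other members of the 10 most distant peaks lay 206 to 323 kb from a gene on chromosomes 2, 6, 10, 13 and X, with folds of 2.54 to 3.96. None of the 10 had a q-value under 0.550. The highest fold of any intergenic peak outside the blocks was also in a desert, at chrX:125589756-125590021 in Xq25. It had 14 reads, a fold of 5.23 and a q-value of 0.00246, and lay 197 kb from LOC124905212.

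Fold enrichment and width were close to those of the other peaks. The fold is the reads at the summit plus 1, divided by the background reads plus 1. Its median was 3.47 (mean 3.50 ± 0.545, SD, n = 308 peaks) in intergenic DNA, 3.41 (3.46 ± 0.498, n = 528) inside genes and 3.43 (3.45 ± 0.454, n = 77) within 5 kb of a gene end. The 95% intervals of these medians, 3.41 to 3.56, 3.34 to 3.46 and 3.27 to 3.56, overlapped. Median widths were 219 bp, 215 bp and 221 bp, and intergenic widths ran from 186 to 511 bp. A fold of at least 4 was reached by 36 intergenic peaks (11.7%), against 12.4% of all 913 peaks, a share near the background.

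**Figure D2:**
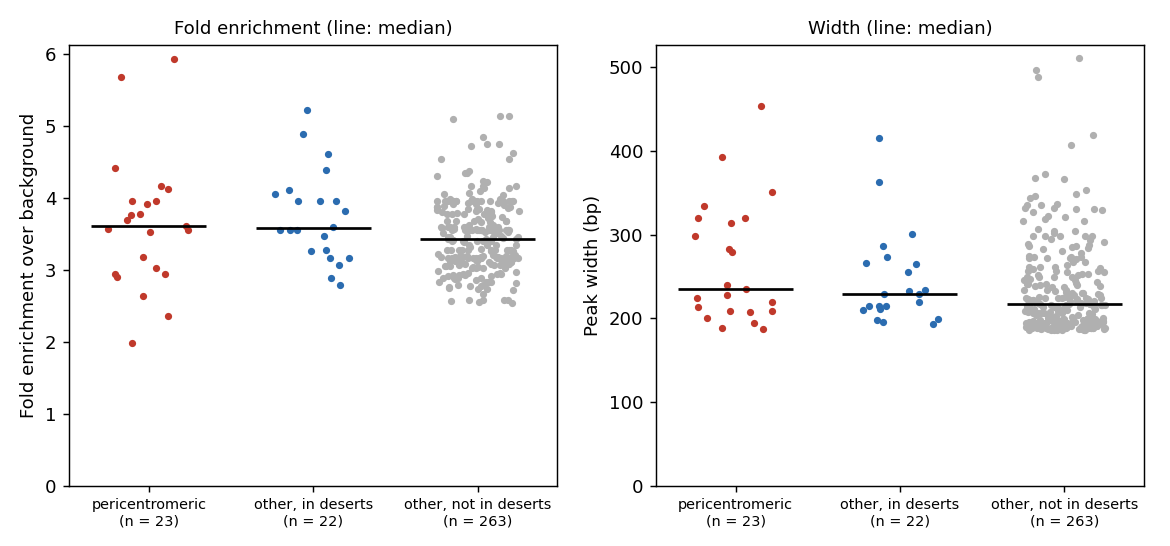
Fold enrichment (left) and width in bp (right) of each intergenic peak, as points with a line at the median. The groups are pericentromeric peaks (23), other peaks in gene deserts (22) and other peaks outside deserts (263). The 3 groups overlap over most of their ranges, with median folds of 3.61, 3.58 and 3.43.

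The reads behind these folds were few. Reads and background were recovered from the fold and p-value of each peak, and the reads came out whole for all 308 intergenic peaks within 0.0005 on the −log10 p scale. The median was 9 reads, and 250 of the 308 peaks had 10 or fewer, against 748 of all 913. The lowest background was 1.53 reads, held by 60 intergenic peaks (19.5%, against 16.5% of all peaks), and at that background 1 more read raises the fold by 0.396. Among peaks with the same 9 reads, the fold ran from 2.56 to 3.96 with the background. The q-value was above 0.5 for 246 of the 308 peaks (79.9%), against 81.7% of all peaks.

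A q-value no higher than 0.05 was held by 16 intergenic peaks (5.19%, interval 3.00% to 8.30%), against 2.96% of all peaks. Peaks inside genes had 11 of 528, and those within 5 kb of a gene end had 0 of 77, which allows a share of up to 4.68% by the exact binomial interval. Of the 16, 7 lay in pericentromeric blocks. Without the blocks the share was 9 of 285 (3.16%), near the background of 2.96%.

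Outside the blocks, distance from a gene showed little relation to strength or width. Spearman's rho across the 285 peaks was −0.0195 for fold against distance and 0.0625 for width against distance. These describe 1 library, and the peaks are not independent replicates. Fold and background were inversely related (rho −0.402), as the background is the divisor of the fold.

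Outside the blocks the 10 highest folds were 4.62 to 5.23, from 11 to 26 reads. Besides the peaks near LOC124905212, TBXT, TBX21 and ZBTB7A, they included chr12:29828594-29828790 (fold 5.14, 12 reads), 44.0 kb from TMTC1, with a q-value of 0.0130. Others were chr4:89493416-89493629 (fold 4.84, q-value 0.0312) and, at a q-value of 0.0702 each, chr1:13402881-13403095, 7.46 kb from PRAMEF20, and chr4:130117725-130117932, 87.0 kb from LOC105377418. The peak at chr2:90398464-90398683 in 2p11.2 had 26 reads over a background of 4.52, a fold of 4.89 and a q-value of 1.55e-06. It lay 1.40 Mb from the centromeric bands and thus just beyond the block of chromosome 2.

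Width varied little. Of the intergenic peaks, 97 (31.5%) were under 200 bp and 40 (13.0%) over 300 bp, against 29.9% and 12.2% of all peaks. The widest was the 511 bp peak beside TBX21. It was followed by chr12:69190263-69190759 (497 bp), 48.8 kb from CPSF6, chr13:97078777-97079265 (489 bp), 9.66 kb from LOC124903196, and chr21:9247675-9248128 (454 bp), which was pericentromeric. The fifth was chrX:118249001-118249419 (419 bp), 96.7 kb from WDR44. Their folds ran from 2.58 to 4.62.

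The pericentromeric peaks were few, and 5 of them held the deepest signal in the list. A block was the centromeric bands of a chromosome, any variable heterochromatin band touching them, and 1 Mb on either side. The blocks held 23 intergenic peaks (7.47%, interval 4.79% to 11.0%) on 14 chromosomes, in 16.2% of the intergenic sequence. Of the 23, 10 lay in the centromeric bands themselves. Together they held 2734 of the 5350 summit reads of the intergenic peaks (51.1%). Of these, 1607 were at 1 peak, without which the share was 1127 of 3743 (30.1%), and the 18 pericentromeric peaks with 26 reads or fewer held 201. The median distance to a gene was 78.6 kb, against 20.4 kb for the other 285.

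All 5 peaks with more than 26 reads were in these blocks, and none was inside or within 5 kb of a gene. The peak at chr3:93470394-93470713, in the centromeric band 3q11.1, had 1607 reads. Its background was 812 reads and its fold of 1.98 was the lowest in the list. In 1q12, chr1:125183641-125183868 had 472 reads over 127 (fold 3.70), and chr1:125180073-125180392, 3535 bp away, had 105 over 22.997 (fold 4.42). On chromosome 16, chr16:46390579-46390912 in q11.2 had 228 reads over 57.5 (fold 3.92), and chr16:34588006-34588356 in p11.2 had 121 over 45.2 (fold 2.64). The background rose with the reads at each of them, so their folds lay within or below the range of peaks with 7 to 15 reads. Their q-values ran from 3.24e-125 to 1.32e-14, the lowest in the list. A given fold reaches a smaller p-value when more reads are counted.

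Of the other 18 pericentromeric peaks, 2 had a q-value of 0.05 or less (11.1%, interval 1.38% to 34.7%), against 2.96% of all peaks. The interval included the share of all peaks. The peak at chr1:143246824-143247216 in 1q21.1 had 14 reads over the lowest background, and its fold of 5.93 was the highest of all 913 peaks (q-value 0.000235). The peak at chr17:26881271-26881490 in 17q11.1 had 21 reads over 2.87, a fold of 5.68 and a q-value of 1.90e-06. The remaining 16 had folds of 2.36 to 4.16. Fold was more variable in the blocks, with a mean of 3.64 ± 0.914 (SD, n = 23) against 3.49 ± 0.505 (n = 285) outside, and the medians were 3.61 and 3.45. Median width was 235 bp in the blocks and 217 bp outside, and median background 2.68 and 1.83 reads. Whether the reads at these sites were uniquely placed was not given in the sources used here, and the part of repeated sequence in their depth was not tested.

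**Figure D3:**
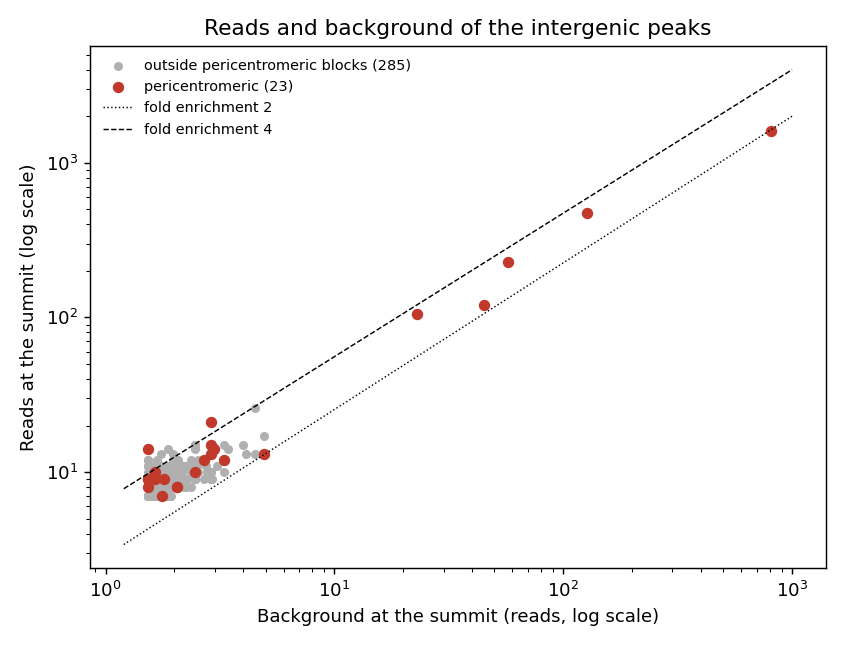
Reads at the summit against background at the summit for the 308 intergenic peaks, both on log scales, with lines at fold enrichments of 2 and 4. The pericentromeric peaks (23, red) include all 5 with more than 26 reads, where the background lies between 22.997 and 812 reads, while the 285 others have at most 26 reads.

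Chromosome ends held 13 intergenic peaks within 5 Mb (4.22%, interval 2.27% to 7.11%), in 6.59% of the intergenic sequence. The interval included the share of sequence, which counts unsequenced bases that can hold no peak. The nearest to an end was chr7:159248654-159248853 (fold 4.14, 11 reads), 0.0972 Mb from the end of 7q. Then came chr3:427116-427321 (fold 3.56, 8 reads), 0.427 Mb from the end of 3p and 17.8 kb from CHL1, the adhesion gene named above. The third was chr6:170211063-170211249 (fold 4.16, 10 reads), 0.595 Mb from the end of 6q. The next pair lay together on 5q, 0.789 and 0.872 Mb from its end. The peaks beside TBXT and ZBTB7A were also within 5 Mb of an end. They were the 2 of the 13 with a q-value of 0.05 or less (15.4%, interval 1.92% to 45.4%), against 2.96% of all peaks. This interval included the share of all peaks.

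Chromosome X had the highest density of intergenic peaks. Of its 77 peaks, 49 were intergenic (63.6%, interval 51.9% to 74.3%), while 50.5% of its length was intergenic by the rule. The density was 0.622 per Mb (0.460 to 0.822), against 0.252 per Mb (0.222 to 0.284) on all other chromosomes, and the intervals did not overlap. In genes and the 5 kb around them, chromosome X had 0.363 peaks per Mb (0.241 to 0.524), an interval that overlapped with that of its intergenic sequence. Chromosome 17 followed with 0.513 intergenic peaks per Mb (0.256 to 0.917, 11 peaks), and chromosome 22 was lowest with 0.0933 (0.0113 to 0.337, 2 peaks). Of the 21.4 Mb of intergenic sequence on chromosome 22, 12.9 Mb lay on its short arm, with unsequenced bases counted. In genes and the 5 kb around them, chromosome 22 had the highest density, 0.783 per Mb (0.496 to 1.17). On chromosomes 1 and 10, where peaks were dense as a whole, the intergenic densities were 0.456 and 0.418 per Mb, and the densities in and near genes were 0.483 and 0.760. Without chromosome X the intergenic density was 0.252 per Mb, a setting added after the data had been seen.

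**Figure D4:**
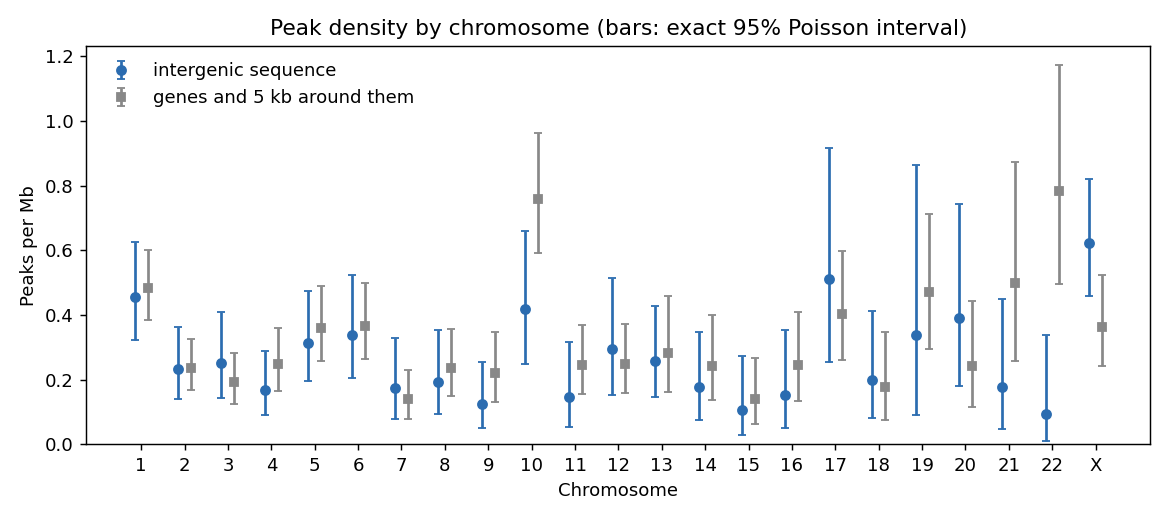
Peaks per Mb of intergenic sequence (circles) and per Mb of genes with the 5 kb around them (squares) on each chromosome, with exact 95% Poisson intervals. Chromosome X has the highest intergenic value, 0.622 per Mb, and chromosome 22 the lowest, 0.0933 per Mb. The lengths include unsequenced bases.

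The long arm of chromosome X held 41 intergenic peaks, at 0.843 per Mb (0.605 to 1.14), and the short arm 8, at 0.320 per Mb (0.138 to 0.631). The intervals overlapped slightly. All 41 lay in bands Xq21 to Xq26, and none in Xq11 to Xq13 or in Xq27 and Xq28. Band Xq22 held 13 in 4.14 Mb, or 3.14 per Mb (1.67 to 5.36), Xq24 held 5 (2.21 per Mb) and Xq23 held 6 (1.54 per Mb). The peaks of the long arm had a median fold of 3.41 and a median of 9 reads, and 2 of 41 (4.88%, interval 0.596% to 16.5%) had a q-value no higher than 0.05, against 2.96% of all peaks. Their median background was 1.84 reads, as over all intergenic peaks, but in Xq22 it was 2.26 reads, with a median of 10 reads at the summit. The number of copies of this region in the cells was not analysed here.

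**Figure D5:**
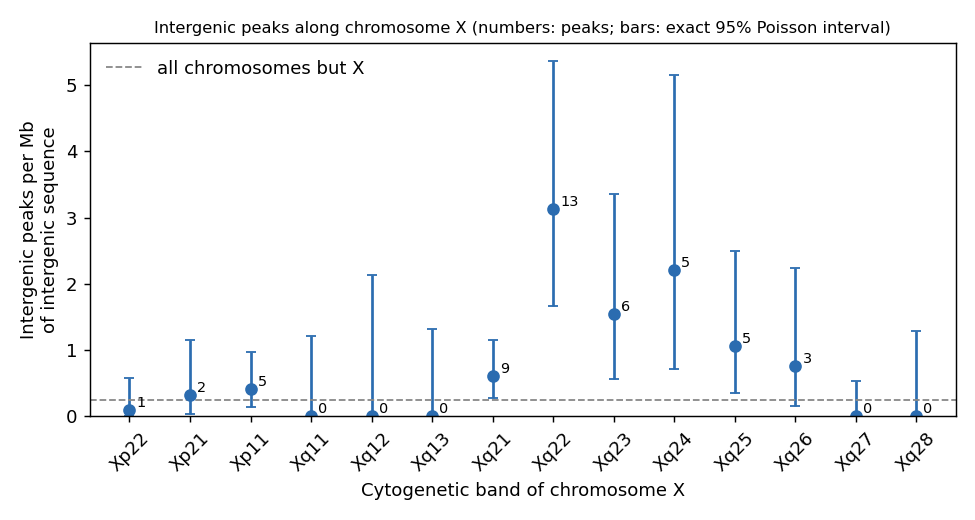
Intergenic peaks per Mb of intergenic sequence in each band of chromosome X, with exact 95% Poisson intervals, the number of peaks above each point and a dashed line at the value of all other chromosomes, 0.252 per Mb. Peaks lie in Xq21 to Xq26 with the highest value, 3.14 per Mb, in Xq22, and none lies in Xq27 or Xq28.

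The next densest arm was 1p, with 27 intergenic peaks at 0.803 per Mb (0.529 to 1.17). In and near genes these arms had 0.522 (0.382 to 0.697) on 1p and 0.482 (0.298 to 0.736) peaks per Mb on Xq, against 0.315 over the genome, and both intervals overlapped with those of the intergenic peaks on the same arm. By cytogenetic stain, which is darker where genes are sparse, the density was 0.369 per Mb in unstained bands (129 peaks), then 0.363, 0.191, 0.336 and 0.290 per Mb from the lightest to the darkest stained class. The value of 0.191 rested on 24 peaks (0.123 to 0.285). Its interval lay below that of the unstained bands (0.308 to 0.438) and overlapped with those of the other stained classes. Variable heterochromatin and centromeric bands were lower still, at 0.0858 and 0.123 per Mb. The stalks of the acrocentric chromosomes held 0 peaks of any kind, with 23.4 Mb of intergenic sequence. Unsequenced bases count in these lengths and can hold no peak. A low value or 0 in the heterochromatin, centromeric and stalk bands is therefore no measure of binding.

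The median distance from an intergenic peak to the nearest other intergenic peak was 2773 kb, and to the nearest other peak of any kind 782 kb. Within 10 kb of another were 14 peaks, within 100 kb 39 peaks and within 1 Mb 93 peaks, of which 37 were on chromosome X. Another peak of any kind lay within 10 kb of 4.55% of intergenic peaks and 2.52% of all peaks. The shares were 16.6% and 11.5% within 100 kb, and 54.5% and 55.6% within 1 Mb. Of the 14 intergenic peaks within 10 kb of another, 6 lay outside the pericentromeric blocks, which left 285 peaks in all. There were 7 pairs closer than 10 kb, and 4 of them were pericentromeric. The closest pair, on 21p11.2, was 991 bp apart and had 13 and 14 reads. The others in the blocks were the 1q12 pair, a pair on 17q11.1 (4061 bp apart, 21 and 15 reads) and a pair on 19q11 (3167 bp apart, 12 and 10 reads). Outside the blocks, a pair near CSGALNACT2P2 on Xq22.3 was 1219 bp apart.

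Runs of at least 3 intergenic peaks within 1 Mb were found at 10 places, and 7 of these were on the long arm of chromosome X. In Xq21.33, 3 peaks had DIAPH2, a formin gene, as the nearest protein-coding gene (folds 3.26 to 3.43). In Xq22.1, 4 peaks had LINC03077 or B3GNT2P1 as the nearest gene and PCDH19 as the nearest protein-coding gene (folds 2.89 to 3.60). In Xq22.3, 3 had CSGALNACT2P2 or SERPINA7P1 as the nearest gene (folds 2.56 to 3.71) and 4 near GAPDHP77, where the nearest protein-coding gene was GUCY2F, a retinal guanylate cyclase. The GAPDHP77 group spanned 137 kb, had folds of 2.80 to 4.62, and included chrX:109220069-109220302 (15 reads, q-value 0.0120). Further along, 4 peaks lay in Xq23, the outermost nearest to AGTR2, the angiotensin type 2 receptor gene, and to SETP8 (folds 3.52 to 3.80), 3 in Xq24 near HSPA8P1, MIR3672 and TPT1P13 (folds 2.95 to 3.96) and 3 in Xq25 near LOC107985650, LOC105373332 and LOC100420320 (folds 3.13 to 3.78). The other runs were on 1p31.1, where NEGR1 and LRRIQ3 were the nearest protein-coding genes (3 peaks, folds 2.58 to 3.06), on 13q21.33, where KLHL1 and DACH1 were (3 peaks, folds 2.67 to 3.18) and on 5q35.3 beside GFPT2, FLT4 and OR2Y1 (3 peaks, folds 3.03 to 3.28). Outside the GAPDHP77 group, no peak of these runs had a q-value under 0.506.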

How the data were processed

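The data were 1 peak list of 913 regions from 1 ChIP-seq library of HEK293T cells. The submitters' processing notes name cutadapt 2.5, Bowtie2 2.3.5.1, MACS2 2.1.2, HOMER 4.10.4 and the build hg38. Settings, the control library and the treatment of reads with several matches are not given in the sources used here. The columns the authors deposited are a score, a fold enrichment (a ratio to the local background), a −log10 p-value, a −log10 q-value and the summit offset. The total read number is unknown.

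Summits were placed against 59675 RefSeq genes of GRCh38.p14, without regard to strand. Chromosome lengths came from GenomeInfoDb 1.38.1 and bands from circlize 0.4.16 (R 4.3.3). Intervals used scipy 1.17.1, tables pandas 2.3.3 and numpy 2.4.6, and plots matplotlib 3.10.9 (Python 3.11.15). Width is the number of bases from start to end, both included. Reads and background at a summit were solved from the deposited fold and p-value as a Poisson tail with a pseudocount of 1. Intervals are exact binomial or Poisson at 95%. The scripts were tested on simulated data. With 1 library no test between conditions was possible.

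The peaks, gene lists and rules were chosen with earlier results of these data known. Peaks named in the text are the pericentromeric ones with a q-value of 0.05 or less or the 5 largest read numbers, the 10 highest folds and 10 largest gene distances outside the blocks, the 5 nearest to a chromosome end, the 5 widest, those next to the 5 kb limit, runs of at least 3, and members of the gene lists. Close pairs were named after their values were seen. Peak sequence was planned as a result and was not used here. A peak and a neighbouring gene that fall under these rules are not reported here.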

Additional observations from a re-analysis of the deposited data

How the results depend on the processing

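No replicate could be left out, since the data hold 1 library. No paired analysis was possible because there was 1 sample. Of 71 alternative values, 43 stayed within the interval of the reported value or, for a count, within 1.5 times of it, and 28 did not. Requiring over 50 kb from a gene left 86 intergenic peaks. The median distance was 17.7 kb with a limit of 1 kb, 31.2 kb with a limit of 10 kb and 83.1 kb when only protein-coding genes counted. The share in deserts was 46.4% with protein-coding genes only, 22.4% with stretches of at least 250 kb, 4.22% with at least 1 Mb and 7.72% without the pericentromeric peaks. The pericentromeric share was 11.0% with blocks extended by 5 Mb and 3.25% in centromeric bands only. Chromosome ends held 1.62% within 1 Mb and 8.12% within 10 Mb. At a q-value of 0.05 or less, 16 peaks remained, with a median distance of 65.6 kb, 62.5% in deserts, 43.8% pericentromeric, 12.5% near ends, a median fold of 4.78 and a median width of 231 bp. At a fold of at least 4, 36 remained, with 28.8 kb, 27.8% in deserts, 13.9% pericentromeric, 11.1% near ends and a median fold of 4.37. The last median is set by the limit itself. At a q-value of 0.01 or less there were 10 peaks, and 9 at 0.05 or less without the pericentromeric peaks, a setting added after the data had been seen. With a pseudocount of 0, reads came out whole for 0 of 308 peaks. The cause of the other shifts was not tested. The few reads per peak, a median of 9, limit the precision of every fold.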
